A study of Mus musculus with 25 samples.

Results

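The Krüppel-like factors described here are 10 genes of the mouse *soleus*: *Klf2*, *Klf3*, *Klf4*, *Klf5*, *Klf6*, *Klf7*, *Klf9*, *Klf10*, *Klf13* and *Klf15*. They were matched by symbol, and all 10 were found among the 52636 genes of the count table and passed the filter on low counts. RNA of the *soleus* of 25 male and female C57BL/6 mice of 12 weeks was sequenced, 1 library per mouse. WT mice carried floxed *Dnmt3a* (flox/flox, with loxP sites around exon 19) and no Cre, and mD3AKO mice carried the same floxed alleles together with a transgene (mCK-Cre Tg) in which the muscle creatine kinase promoter drives Cre. Cre from this promoter acts in differentiated muscle, and which cells of the *soleus* still had *Dnmt3a* was not tested here. The 7 WT and 6 mD3AKO mice of the exercised groups were killed 60 minutes after the end of a run of 30 minutes on a treadmill at 16 m/min and 5% incline, and the 5 WT and 7 mD3AKO mice of the rested groups were killed after the same time on a sham treadmill. All were familiarized with the treadmill beforehand.

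Krüppel-like factors are transcription factors that bind GC-rich and CACCC sequences through zinc fingers at the carboxyl end of the protein. Their amino ends differ and set what they do at a promoter: KLF2, KLF4, KLF5, KLF6 and KLF7 are mostly activators, KLF3 recruits the corepressor CtBP, and KLF9, KLF10 and KLF13 recruit the corepressor Sin3a. KLF2 and KLF4 are best known in endothelium, where flowing blood induces them, and KLF15 is known in muscle and liver as a glucocorticoid-induced regulator of amino acid and lipid metabolism.

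The libraries held 22671457 to 37431801 counts (median 32189360), so that 1 CPM (counts scaled to the same library total) rested on about 32.2 reads at the median depth. *Dnmt3a* was at 93.4 to 131 CPM in the 12 WT mice and at 34.5 to 53.9 CPM in the 13 mD3AKO mice, and the sex label of all 25 libraries matched *Xist* and *Ddx3y*. Mouse 15, a rested mD3AKO male, had the fewest counts and 39.5% of them in 3 ribosomal RNA genes, against at most 13.0% in the others. The number of Krüppel-like factors called for exercise, for genotype and for their interaction was the same without it. The slow and fast fiber markers were abundant in every library, with 21923 to 43543 CPM summed over 5 slow and 21954 to 43891 CPM over 6 fast fiber genes, and 0 of these 11 genes differed with exercise or genotype. In whole muscle, fewer cells of a type and less RNA per cell cannot be told apart.

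The 250 bases in front of the RefSeq start (build GRCm38.p6) are shown for 6 members. *Klf2*, *Klf4* and *Klf6* rose most after exercise in the test over both genotypes. *Klf9*, *Klf13* and *Klf15* were above the rested median in 12 or 13 of the 13 exercised mice. The same was so for *Klf2*, *Klf4*, *Klf6* and *Klf7*. Capitals mark matches, on either strand, to CACCC (the box that the family itself binds), GGGCGG (the GC box of SP proteins), TGACG (the core of the cAMP response element) and the site of the muscle factor MEF2. They lie at chr8:72318812-72319061 (plus strand) for *Klf2*, chr4:55532476-55532725 (minus) for *Klf4*, chr13:5861239-5861488 (plus) for *Klf6*, chr19:23140976-23141225 (plus) for *Klf9*, chr7:63938916-63939165 (minus) for *Klf13* and chr6:90462326-90462575 (plus) for *Klf15*, and each is written 5′ to 3′ along its gene.
Klf2: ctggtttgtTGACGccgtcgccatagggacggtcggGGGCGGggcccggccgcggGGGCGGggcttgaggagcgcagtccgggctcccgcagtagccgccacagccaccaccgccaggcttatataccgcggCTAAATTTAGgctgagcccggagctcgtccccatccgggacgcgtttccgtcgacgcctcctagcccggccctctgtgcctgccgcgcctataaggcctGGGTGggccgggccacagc
Klf4: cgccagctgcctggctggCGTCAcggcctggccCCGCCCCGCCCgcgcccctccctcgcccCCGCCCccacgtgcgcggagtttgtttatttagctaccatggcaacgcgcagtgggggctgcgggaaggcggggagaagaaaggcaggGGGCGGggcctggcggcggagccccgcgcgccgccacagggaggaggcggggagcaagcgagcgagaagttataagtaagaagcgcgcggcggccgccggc
Klf6: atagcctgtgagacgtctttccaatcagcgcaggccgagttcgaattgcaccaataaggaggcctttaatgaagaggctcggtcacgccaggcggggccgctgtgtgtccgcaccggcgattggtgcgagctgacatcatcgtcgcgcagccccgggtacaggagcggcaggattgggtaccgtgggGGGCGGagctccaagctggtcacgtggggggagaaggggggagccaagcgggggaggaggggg
Klf9: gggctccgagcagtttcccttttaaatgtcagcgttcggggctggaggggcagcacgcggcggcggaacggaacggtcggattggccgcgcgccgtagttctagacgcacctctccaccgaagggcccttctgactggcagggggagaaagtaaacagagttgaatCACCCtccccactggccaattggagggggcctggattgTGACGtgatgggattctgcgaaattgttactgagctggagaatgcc
Klf13: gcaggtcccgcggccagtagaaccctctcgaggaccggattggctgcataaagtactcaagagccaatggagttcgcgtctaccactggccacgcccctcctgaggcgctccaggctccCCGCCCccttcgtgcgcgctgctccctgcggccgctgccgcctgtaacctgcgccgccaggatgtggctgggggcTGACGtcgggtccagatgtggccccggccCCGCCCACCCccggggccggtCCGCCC
Klf15: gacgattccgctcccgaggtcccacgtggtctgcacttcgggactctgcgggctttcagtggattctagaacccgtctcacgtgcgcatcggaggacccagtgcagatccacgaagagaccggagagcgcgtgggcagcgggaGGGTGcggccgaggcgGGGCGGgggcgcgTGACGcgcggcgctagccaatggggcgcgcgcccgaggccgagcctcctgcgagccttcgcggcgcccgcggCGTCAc

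Of the 10 members, 8 matched a promoter entry by symbol; those of *Klf5* and *Klf10* were not analysed here. A CACCC match was in 6 of the 8 windows and in 52.0% of all 32841 promoters of the same length, and a GGGCGG match was in 7 of the 8 and in 32.7% of all. The *Klf4* window held 4 GC boxes and 0 CACCC matches, whereas that of *Klf3* held 6 GC boxes and 5 CACCC matches. The RefSeq start is not always the start of the gene model used for counting. The windows of *Klf2*, *Klf3* and *Klf6* run into the counted gene, and that of *Klf7* lies within it. The core TGACG was in the windows of *Klf2*, *Klf4*, *Klf9*, *Klf13* and *Klf15* (5 of 8, against 17.8% of all promoters), and its palindrome TGACGTCA was in 0 of 8 (1.55% of all). The MEF2 site was in the window of *Klf2* alone among the 8 (2.92% of all), at 118 bases before the start. The sequence AGAACA, bound by steroid receptors (16.1% of all) and the CArG box of serum response factor (1.47% of all) had 0 matches in the 8 windows. A GC box can overlap a CACCC match, as it does once in *Klf13*, and every palindrome also counts as a match to TGACG.

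Exercise raised 8 of the 10 Krüppel-like factors and lowered 0 in the test over both genotypes, which was the quasi-likelihood test of edgeR with p-values adjusted by Benjamini-Hochberg over 16340 genes. Of all tested genes 10.4% were called, 5.70% as higher and 4.69% as lower. Averaged over the genotypes, the rise was largest for *Klf4* (2.65-fold), followed by *Klf6* (1.83-fold) and *Klf2* (1.56-fold), and was between 1.23-fold and 1.40-fold for *Klf3*, *Klf7*, *Klf9*, *Klf13* and *Klf15*. *Klf5* and *Klf10* did not pass the test. In males alone *Klf2*, *Klf3*, *Klf9* and *Klf15* no longer passed. Their log2 fold changes there were 0.54, 0.17, 0.24 and 0.35, against 0.65, 0.30, 0.35 and 0.48 in all mice. In females alone *Klf7* no longer passed, at 0.28 against 0.35 in all mice, and *Klf2* was at 0.99. With library totals in place of TMM factors *Klf3* and *Klf7* no longer passed. The median log2 fold change of the 10 members was 0.41, and that of all tested genes was -0.00088. The levels summed over the 10 members lay between 329 and 456 CPM in the 12 rested mice and between 503 and 619.8 CPM in the 13 exercised mice. The groups did not overlap in this sum, which restates the changes of the members above and was not compared with other sets of genes. *Klf9* alone had a mean of 160 CPM in the rested and 204 CPM in the exercised mice.

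**Figure D1:**
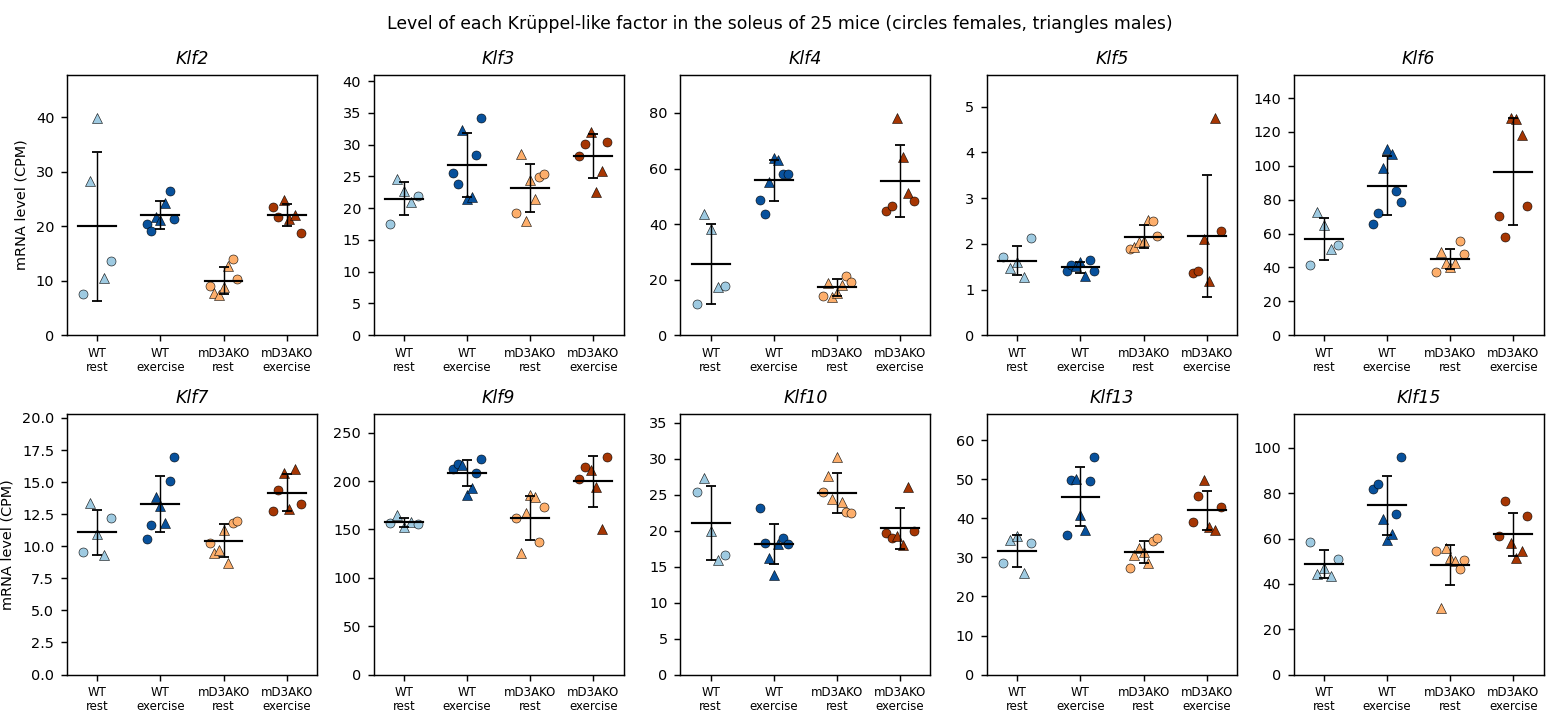
Level of each Krüppel-like factor in CPM (vertical axis, from 0) in the 4 groups of genotype and exercise, with 1 point per mouse (circles females, triangles males), the mean as a line and the SD as bars. *Klf4* and *Klf13* of every exercised mouse lie above those of every rested mouse, whereas *Klf5* and *Klf10* do not rise.

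*Klf4* (ENSMUSG00000003032, chr4:55527143-55532466, minus strand) encodes an activator of endothelial and epithelial genes that is also one of the factors used to reprogram cells to pluripotency. In the 5 rested WT mice its level was 11.4 CPM in mouse 1, 43.7 in mouse 11, 38.3 in mouse 13, 17.5 in mouse 14 and 17.7 in mouse 20. In the 7 exercised WT mice it was 43.7 to 63.9 CPM (median 57.9). The rested mice fell apart into mice 11 and 13, which came near the exercised range, and the other three, which did not. The 7 rested mD3AKO mice had 13.7 to 21.5 CPM (median 18.3) and the 6 exercised ones 44.7 to 78.2 CPM (median 49.7), with a wide gap between them. Every one of the 13 exercised mice was above every one of the 12 rested mice, which was so for 0.765% of all tested genes, although the lowest exercised mouse and mouse 11 were both at 43.7 CPM. The log2 fold change was 1.40 (SE 0.162, adjusted p = 6.6e-07). How many of all genes separate within a genotype was not counted. This limit holds for *Klf4* and *Klf13* in both genotypes. It also holds for *Klf2*, *Klf6* and *Klf7* in mD3AKO mice and for *Klf9* and *Klf15* in WT mice.

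*Klf6* (ENSMUSG00000000078, chr13:5861482-5870394, plus strand) encodes a widely expressed activator that is induced by injury and growth signals. Its level in the rested WT mice was 41.4 CPM in mouse 1, 72.9 in mouse 11, 65.2 in mouse 13, 50.9 in mouse 14 and 53.2 in mouse 20. The exercised WT mice had 65.7 to 109.7 CPM (median 85.3). Mouse 11, and by a narrow margin not mouse 13, was within the exercised range of its genotype. In mD3AKO mice the level was 37.4 to 55.7 CPM at rest (median 42.6) and 58.1 to 128 CPM after exercise (median 97.2), without overlap. *Klf6* rose by 0.87 on the log2 scale (SE 0.127, adjusted p = 2.1e-05), and 9 of the 13 exercised mice were above every rested mouse.

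*Klf2* (ENSMUSG00000055148, chr8:72319033-72321656, plus strand) encodes the factor that keeps endothelium quiescent under steady flow and that also holds T cells at rest. In the rested WT mice it was at 7.52 CPM in mouse 1, 28.4 in mouse 11, 39.9 in mouse 13, 10.5 in mouse 14 and 13.6 in mouse 20. In the exercised WT mice it was at 19.2 to 26.6 CPM (median 21.3). Mice 11 and 13 were above all 7 exercised WT mice and the other three were below all of them. The rested mD3AKO mice had 7.45 to 14.0 CPM (median 9.03) and the exercised ones 18.8 to 24.9 CPM (median 21.9), without overlap. After exercise *Klf2* was thus within a narrow range in both genotypes, and its spread was in the rested WT mice. It rose by 0.65 on the log2 scale (SE 0.182, adjusted p = 0.020), and all 13 exercised mice were above the rested median of 10.4 CPM although 0 of them were above every rested mouse.

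*Klf7* (ENSMUSG00000025959, chr1:64029447-64122282, minus strand), an activator known from neurons and fat cell precursors, had 9.52 CPM in mouse 1, 13.4 in mouse 11, 11.0 in mouse 13, 9.36 in mouse 14 and 12.2 in mouse 20 among the rested WT mice. The exercised WT mice had 10.6 to 16.9 CPM (median 13.1), a range that overlapped with rest. In mD3AKO mice it was at 8.67 to 11.9 CPM at rest (median 10.3) and 12.7 to 16.1 CPM after exercise (median 13.9). These did not overlap, and the rise of *Klf7* over both genotypes was 0.35 on the log2 scale (SE 0.0775, adjusted p = 0.0029). Its gene model shares 3196 exon bases with *Gm26649* on the other strand, to which 0 counts were assigned. Whether the strand was used in counting is not given in the sources used here.

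*Klf5* (ENSMUSG00000005148, chr14:99298691-99313405, plus strand), an activator of dividing epithelial and smooth muscle cells, was the scarcest of the 10, with 35 to 140 counts per library. Its levels in the rested WT mice were 1.70 CPM in mouse 1, 1.48 in mouse 11, 1.59 in mouse 13, 1.27 in mouse 14 and 2.13 in mouse 20, and the exercised WT mice had 1.28 to 1.65 CPM (median 1.52). The mD3AKO mice had 1.88 to 2.52 CPM at rest (median 2.07) and 1.19 to 4.75 CPM after exercise (median 1.75). The value of 4.75 CPM belonged to mouse 19, and all other libraries of any group were at or below 2.52 CPM. *Klf5* did not pass the test (log2 fold change -0.06, SE 0.163, adjusted p = 0.91), and without mouse 19 the estimate was -0.26.

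*Klf9* (ENSMUSG00000033863, chr19:23141226-23166911, plus strand) encodes a Sin3a-binding factor that glucocorticoid and thyroid hormone induce. The rested WT mice were close together, at 157 CPM in mouse 1, 165 in mouse 11, 152 in mouse 13, 158 in mouse 14 and 156 in mouse 20. The exercised WT mice had 186 to 222 CPM (median 213) and did not overlap with rest. The mD3AKO mice had 126 to 185 CPM at rest (median 167) and 150.4 to 225 CPM after exercise (median 207). In total 12 of the 13 exercised mice were above every rested mouse, and the exception was mouse 19, at 150.4 CPM, below the rested median of 160.1 CPM. *Klf9* rose by 0.35 on the log2 scale (SE 0.0626, adjusted p = 0.00029).

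*Klf13* (ENSMUSG00000052040, chr7:63886351-63938915, minus strand), also a Sin3a-binding factor and known from lymphocytes and heart, was at 28.6 CPM in mouse 1, 34.5 in mouse 11, 35.4 in mouse 13, 26.1 in mouse 14 and 33.8 in mouse 20 among the rested WT mice. The exercised WT mice had 35.7 to 55.7 CPM (median 49.5). In mD3AKO mice it was at 27.4 to 34.9 CPM at rest (median 31.4) and 37.0 to 49.7 CPM after exercise (median 41.1). As for *Klf4*, the 13 exercised mice were all above the 12 rested mice, and here mice 11 and 13 lay with the other rested mice. The rise was 0.47 on the log2 scale (SE 0.0733, adjusted p = 4.8e-05).

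*Klf10* (ENSMUSG00000037465, chr15:38294413-38300707, minus strand), also a Sin3a-binding member, is an early target of TGF-beta and a clock-controlled gene. It was at 25.4 CPM in mouse 1, 27.3 in mouse 11, 20.0 in mouse 13, 16.0 in mouse 14 and 16.6 in mouse 20 among the rested WT mice, and at 13.8 to 23.1 CPM in the exercised ones (median 18.2). The mD3AKO mice had 22.5 to 30.2 CPM at rest (median 24.3) and 18.0 to 26.0 CPM after exercise (median 19.5). Of the exercised mice, 12 of 13 were below the rested median of 24.2 CPM, which is the direction opposite to that of the other Sin3a-binding members, and mouse 19 was the exception. *Klf10* did not pass the test (log2 fold change -0.27, 95% interval -0.45 to -0.08, adjusted p = 0.055), and with DESeq2 in place of edgeR its adjusted p was 0.035.

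*Klf3* (ENSMUSG00000029178, chr5:64803388-64832901, plus strand), the CtBP-binding member and a repressor in red blood cells, fat and muscle, had 17.5 CPM in mouse 1, 24.5 in mouse 11, 22.7 in mouse 13, 21.0 in mouse 14 and 21.9 in mouse 20 among the rested WT mice and 21.5 to 34.2 CPM in the exercised ones (median 25.6). In mD3AKO mice it was at 17.9 to 28.6 CPM at rest (median 24.5) and 22.6 to 32.0 CPM after exercise (median 29.2). The groups overlapped in both genotypes, and 5 of the 13 exercised mice were above every rested mouse. *Klf3* rose by 0.30 on the log2 scale (SE 0.0863, adjusted p = 0.023), and without mouse 1 it no longer passed (adjusted p = 0.051). Its exons share 404 bases with *Gm20033* on the other strand, which had 188 counts over all libraries against 20384 for *Klf3*.

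*Klf15* (ENSMUSG00000030087, chr6:90462576-90475238, plus strand), which stands outside the partner groups above, was at 58.5 CPM in mouse 1, 44.3 in mouse 11, 47.1 in mouse 13, 43.4 in mouse 14 and 51.1 in mouse 20 among the rested WT mice and at 59.4 to 95.9 CPM in the exercised ones (median 70.8), without overlap. The mD3AKO mice had 29.5 to 56.0 CPM at rest (median 50.6) and 51.3 to 76.4 CPM after exercise (median 59.6), and here the ranges overlapped. All 13 exercised mice were above the rested median of 50.4 CPM. *Klf15* rose by 0.48 on the log2 scale (SE 0.0941, adjusted p = 0.00076).

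Of the other 16 genes of the KLF and SP family, 9 had enough counts for the test, and *Klf11* was the only one called. It encodes a further Sin3a-binding factor and is a close relative of *Klf10*. Its level was 9.43 to 14.0 CPM in the rested and 11.3 to 16.8 CPM in the exercised mice, and it rose by 0.40 on the log2 scale (SE 0.0764, adjusted p = 0.00070). The remaining 8, with a low *Klf1* and *Klf8*, did not pass, and the median over the 9 was 0.06. Among them were the well expressed *Sp1*, *Sp3* and *Sp4*, whose log2 fold changes were negative. By partner, 4 of 6 tested activators, 3 of 5 tested Sin3a-binding members and 1 of 3 CtBP-binding members rose and 0 fell, beside 5.70% of all genes called higher and 4.69% called lower.

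The members did not differ between the genotypes in the test over rest and exercise. With edgeR's quasi-likelihood test 0 of 10 were called, against 0.269% of all genes, 3 of 10 had an unadjusted p under 0.05, against 6.23% of all genes, and DESeq2 called 0 of 10. The 3 were *Klf2* (log2 fold change mD3AKO minus WT -0.50, 95% interval -0.88 to -0.13), *Klf5* (0.47, interval 0.13 to 0.81) and *Klf10* (0.21, interval 0.03 to 0.40). The value of *Klf2* was -0.30 without mouse 13 and 0.012 in females alone, and that of *Klf5* was 0.28 without mouse 19 and 0.17 in females alone. For *Klf10* it was 0.072 in females alone. At rest *Klf2* of mD3AKO mice was 0.499 times that of WT mice (adjusted p = 0.36). After exercise it was 0.998 times that of WT mice (adjusted p = 1.00). 0 of 10 members were called in either of these comparisons, where 0.0918% and 0.110% of all genes were called. At rest 2 of 10, *Klf2* and *Klf4*, had an unadjusted p under 0.05, against 3.65% of all genes. After exercise 2 of 10, *Klf5* and *Klf15*, did, against 5.51% of all genes.

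The response to exercise was then set side by side for the genotypes. In WT mice 4 of the 10 rose (*Klf4*, *Klf9*, *Klf13* and *Klf15*; 3.59% of all genes called, 2.16% called higher), and in mD3AKO mice 6 rose (*Klf2*, *Klf4*, *Klf6*, *Klf7*, *Klf9* and *Klf13*; 6.02% called, 3.70% called higher). Without TMM these counts were 2 and 3, in males alone 1 and 4, and in females alone 1 and 2. The calls over all genes, 587 in WT and 984 in mD3AKO mice, also became fewer, with 293 and 484 without TMM, 207 and 630 in males alone and 186 and 184 in females alone. *Klf2* had a log2 fold change of 0.15 (SE 0.261, adjusted p = 0.95) in WT and of 1.15 (SE 0.252, adjusted p = 0.0048) in mD3AKO mice. *Klf4* had 1.12 (SE 0.236) and 1.69 (SE 0.221), and *Klf6* had 0.64 (SE 0.184, adjusted p = 0.052) and 1.10 (SE 0.173, adjusted p = 0.00013). *Klf15* went the other way, with 0.61 (SE 0.138, adjusted p = 0.0082) in WT and 0.36 (SE 0.129, adjusted p = 0.11) in mD3AKO mice.

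**Figure D2:**
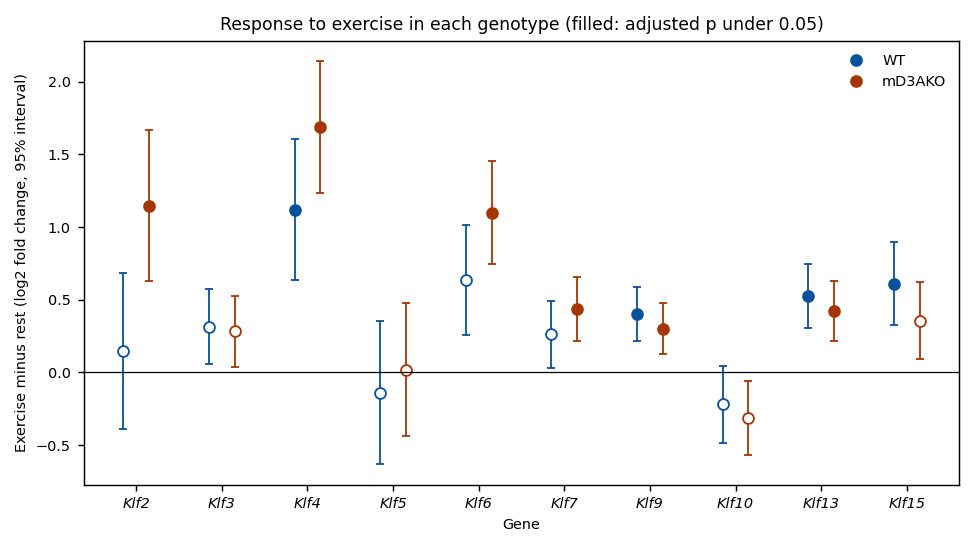
Log2 fold change from rest to exercise (vertical axis) of each Krüppel-like factor in WT (blue) and mD3AKO mice (brown), with 95% intervals from edgeR's quasi-likelihood fit. Filled points passed an adjusted p under 0.05, and the largest distance between the genotypes is that of *Klf2*, at 0.15 in WT and 1.15 in mD3AKO mice.

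These differences between the genotypes did not pass the test of the interaction. edgeR's quasi-likelihood test called 0 of 10 members and 0.00% of all genes, DESeq2 called 0 of 10, and 1 of 10, *Klf2*, had an unadjusted p under 0.05, against 2.47% of all genes. For *Klf2* the response of mD3AKO mice was larger by 1.00 on the log2 scale (95% interval 0.26 to 1.74, adjusted p = 1.00), for *Klf4* by 0.57 (interval -0.08 to 1.22) and for *Klf6* by 0.46 (interval -0.05 to 0.98). The values depended on single rested WT mice: without mouse 13 that of *Klf2* was 0.58, and without mouse 11 that of *Klf4* was 0.29. In males alone the *Klf2* value was 1.56 and in females alone it was -0.10. For the other 7 members the interaction lay between -0.25 and 0.17, each with an interval that held 0.

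The same rested WT mice stood apart in the immediate early genes, which respond to stimulation without new protein synthesis. The summed level of 20 such genes was 525 CPM in mouse 11 and 712 CPM in mouse 13, against 263 to 341 CPM in the other three rested WT mice, 290.2 to 381 CPM in the rested mD3AKO mice and 388 to 2526 CPM in the exercised mice. *Klf9* (165 and 152 CPM), *Klf13* (34.5 and 35.4 CPM) and *Klf15* (44.3 and 47.1 CPM) of mice 11 and 13 were within or next to the range of the other rested mice. The 12 endothelial genes under the control of KLF2 and KLF4 were summed as well. They reached 410 CPM in mouse 11 and 424 CPM in mouse 13, against 224 to 279 CPM in the other rested mice. Summed endothelial markers were at 565 and 628 CPM in these mice, against 465.6 to 598 CPM in the other rested mice. The part of the immediate early and endothelial genes in the levels of the members was not tested.

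**Figure D3:**
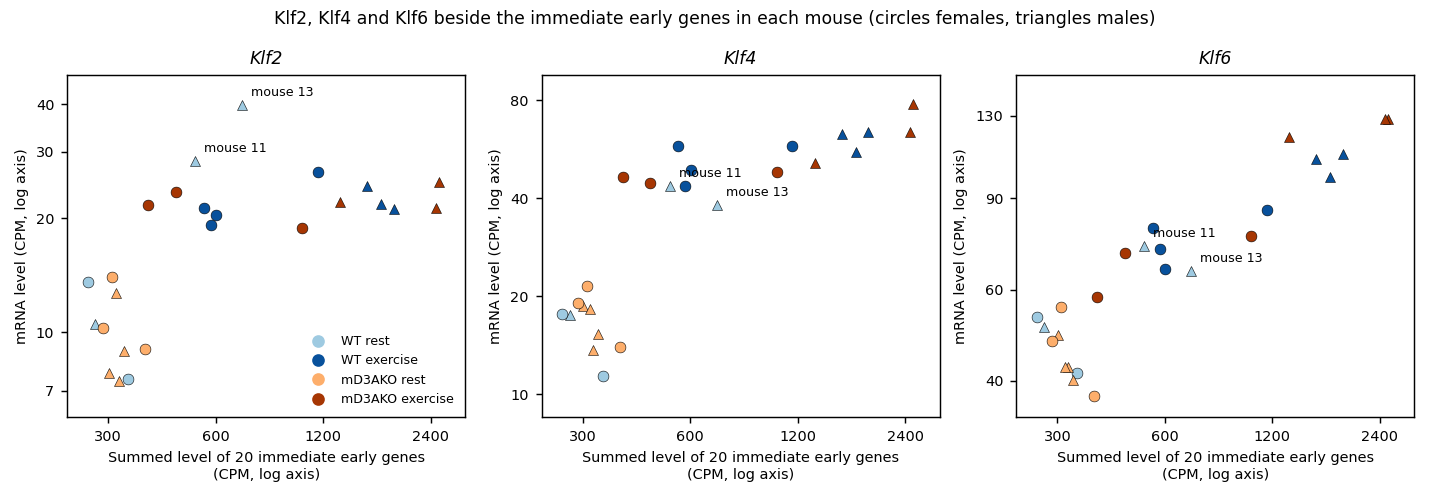
Level of *Klf2*, *Klf4* and *Klf6* in CPM (vertical log axis) against the summed level of 20 immediate early genes in CPM (horizontal log axis), with 1 point per mouse colored by group (circles females, triangles males). Rested mice 11 and 13 lie at 525 and 712 CPM of the immediate early genes, to the right of the other 10 rested mice, and reach 28.4 and 39.9 CPM of *Klf2*.

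Sex was compared in a fit with 8 groups of sex, genotype and exercise. The mice numbered 7 to 19 were all male and the others all female, so that sex and anything that followed the numbering cannot be told apart. Of the 10 members, 3 differed with sex, against 8.65% of all genes: 2 were higher in males (5.04% of all genes), *Klf4* (males minus females 0.43 on the log2 scale, 95% interval 0.18 to 0.68, adjusted p = 0.027) and *Klf6* (0.41, SE 0.0718, adjusted p = 0.00095), and 1 was lower (3.60% of all genes), *Klf15* (-0.28, SE 0.0784, adjusted p = 0.027). In the exercised mice the 6 males had 98.9 to 128 CPM of *Klf6* and the 7 females 58.1 to 85.3 CPM. At rest the 7 males had 40.2 to 72.9 CPM and the 5 females 37.4 to 55.7 CPM. The share of all genes that separated the exercised sexes in this way was not counted. The summed immediate early genes split the exercised mice in the same way, with 1340 to 2526 CPM in males and 388 to 1159.95 CPM in females, and the share of counts in the 3 ribosomal RNA genes was 9.84% to 11.8% in the exercised males and 7.75% to 11.0% in the exercised females. Their part in the difference was not tested. Without mouse 1 only *Klf6* passed, *Klf4* also missed the threshold without mouse 11 and *Klf15* without mouse 6, 16 or 17, and without TMM only *Klf15* passed.

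The exercised females were higher than the exercised males in *Klf15*, with 70.8 to 95.9 against 59.4 to 68.5 CPM in WT and 61.0 to 76.4 against 51.3 to 58.2 CPM in mD3AKO mice. These groups of 3 or 4 mice did not overlap in either genotype, and the share of all genes that separated so was not counted. A different response of the sexes was not called for any member: edgeR's quasi-likelihood test gave 0 of 10 (0.0551% of all genes), and 1 of 10 at an unadjusted p under 0.05 (3.34% of all genes). That one was *Klf6*, whose response was larger in males by 0.52 on the log2 scale (95% interval 0.23 to 0.82, adjusted p = 0.70).

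**Figure D4:**
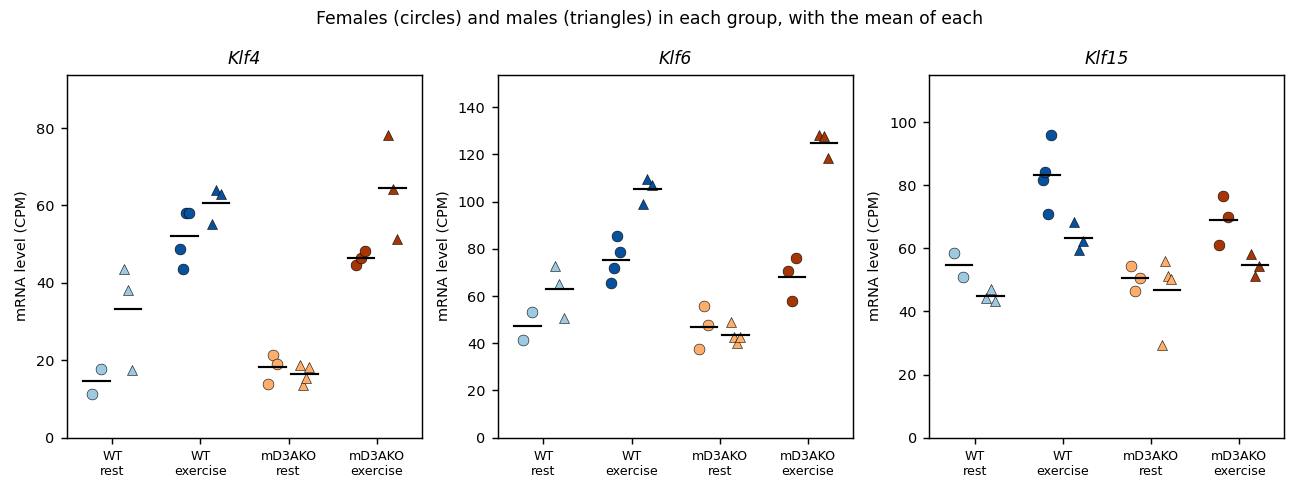
Levels of *Klf4*, *Klf6* and *Klf15* in CPM (vertical axis, from 0) in each group of genotype and exercise, split into females (circles) and males (triangles), with 1 point per mouse and a line at the mean. After exercise the males lie above the females in *Klf6* (98.9 to 128 against 58.1 to 85.3 CPM) and below them in *Klf15* within each genotype.

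Levels were compared between genes as CPM per kilobase of exons. *Klf9* was the most abundant in every group, at 48.3 ± 1.45 (SD, n = 5) and 63.8 ± 4.16 (n = 7) CPM per kilobase in rested and exercised WT mice and at 49.6 ± 6.93 (n = 7) and 61.2 ± 8.05 (n = 6) in mD3AKO mice. It made up 39.9% to 47.1% of the summed level of the 10 members, and its range did not overlap with that of the next gene. *Klf15* had rank 2 in every group (17.3 to 26.8 CPM per kilobase on average) and *Klf6* rank 3 (10.2 to 22.0), and their ranges overlapped in each group.

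By its mean, *Klf4* had rank 5 in the rested groups (8.43 ± 4.69 in WT and 5.65 ± 0.961 in mD3AKO mice), where its range overlapped with that of *Klf2*, and rank 4 in the exercised groups (18.3 ± 2.41 and 18.2 ± 4.30), where its range overlapped with that of *Klf6*. *Klf2* followed it in both exercised groups, at 12.0 ± 1.36 and 11.9 ± 1.12. *Klf10* had rank 4 in rested mD3AKO mice (8.28 ± 0.918), above *Klf4*, and rank 6 or 7 after exercise, where it overlapped with *Klf13*. *Klf3*, *Klf7* and *Klf5* were the last 3 in every group, between 0.862 and 2.51 CPM per kilobase on average.

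**Figure D5:**
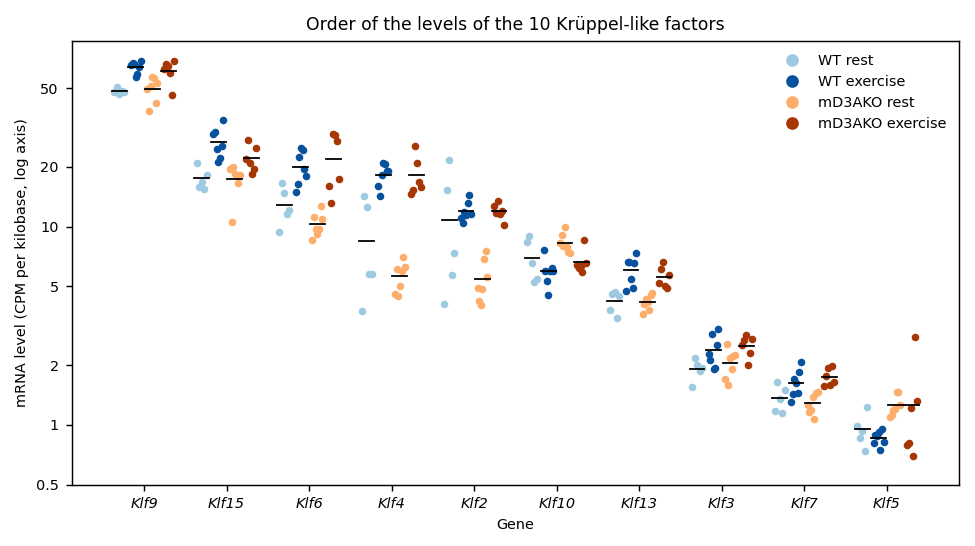
Level of the 10 Krüppel-like factors in CPM per kilobase of exons (vertical log axis), ordered by the mean over all mice, with 1 point per mouse in the 4 groups and a line at each group mean. *Klf9* lies apart at the top (48.3 to 63.8 CPM per kilobase on average) and *Klf3*, *Klf7* and *Klf5* at the bottom, while the points of the genes between them overlap with those of their neighbors when the 4 groups are pooled.

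The genes whose log2 CPM followed that of a member most closely over the 25 libraries, among 11404 genes outside the family, are given as a description, since libraries of a group share its treatment. *Klf4* was most like *Rhob*, a small GTPase (Pearson r = 0.96), *Ccn2*, a secreted matrix protein (0.96), and *Fosl2*, a subunit of AP-1 (0.95). *Klf6* was most like *Fosl2* (0.95), *Fos*, also a subunit of AP-1 (0.94), and *Dnajb1*, a heat shock protein (0.93). *Klf2* was most like *Errfi1*, a feedback inhibitor of the EGF receptor (0.92), *Apold1*, an early response gene of endothelium (0.91), and *Zfp36*, which destabilizes mRNAs (0.91). After subtraction of the group means these correlations were 0.80 to 0.87.

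*Klf9* and *Klf15* had other company. *Klf9* was most like *Mn1*, a transcriptional coregulator (0.95), *Ppara*, a nuclear receptor of fatty acid oxidation (0.89), and *Lvrn*, a peptidase (0.86). *Klf15* was most like *Vps18*, a lysosomal tethering protein (0.88), *Rpp25l* (0.88) and again *Mn1* (0.87). For *Klf10* the closest were *Cldn5*, a tight junction protein of endothelium (0.75), *Furin*, a protease (0.73), and *Zscan29* (0.69). After subtraction of the group means the values of these 9 pairs were 0.49 to 0.88.

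The genes around the members in their pathways are given by list, and each count is to be read beside the 5.70% of all tested genes called higher and the 4.69% called lower with exercise. Of the 6 inputs to *Klf2* and *Klf4* (the kinases *Map3k3*, *Map2k5* and *Mapk7* and the factors *Mef2a*, *Mef2c* and *Mef2d*) 0 were called with exercise, and of the 10 corepressors and coactivators of KLF proteins 0 were called, with a median log2 fold change of 0.01. Of the 12 endothelial genes under the control of KLF2 and KLF4, 3 rose and 1 fell. *Thbd*, the thrombomodulin that keeps blood from clotting, rose by 0.57 on the log2 scale (adjusted p = 1.2e-06), and *Nos3*, the endothelial nitric oxide synthase, by 0.34 (adjusted p = 0.0037). *Tek*, the receptor of angiopoietins, fell by 0.35 (adjusted p = 0.00029), and the median over the 12 was 0.11.

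Of the amino acid genes under the control of KLF15, 8 of 10 had enough counts for the test and 0 were called (median 0.09). Of the 21 glucocorticoid-responsive genes, 15 rose and 0 fell (median 0.77), beside 5.70% and 4.69% of all genes. Among them *Mt2* and *Mt1*, which bind metals, rose by 2.64 and 1.68 on the log2 scale (adjusted p = 3.0e-07 and 1.4e-08), *Ddit4*, an inhibitor of mTOR signalling, by 2.48 (adjusted p = 1.4e-10) and *Cebpd*, a transcription factor, by 1.86 (adjusted p = 5.8e-09). Of the 20 immediate early genes, 9 rose and 0 fell (median 0.86, beside the same shares of all genes), and the largest rises were those of *Atf3* (4.30, adjusted p = 3.2e-06), *Nr4a2* (3.50, adjusted p = 1.9e-08), *Fos* (3.35, adjusted p = 6.7e-05) and *Nr4a3* (3.13, adjusted p = 1.2e-09).

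Of the 17 circadian genes listed beside *Klf10* and *Klf15*, 4 rose and 2 fell (median 0.05), beside 5.70% and 4.69% of all genes. *Nfil3* rose by 2.16 (adjusted p = 6.8e-09), *Ciart* by 1.71 (adjusted p = 0.0011), *Per1* by 1.50 (adjusted p = 4.4e-06) and *Per2* by 1.16 on the log2 scale (adjusted p = 0.0012). The 2 that fell were *Nr1d1* and *Bhlhe40*, named here after their values were seen. Of the 11 TGF-beta genes listed beside *Klf10* and *Klf11*, 3 rose and 1 fell (median 0.07): among them *Skil* rose by 0.61 (adjusted p = 2.7e-05) and *Smad7* by 0.51 (adjusted p = 9.8e-05), both inhibitors of SMAD signalling, and the ligand *Tgfb2* fell by 0.22 (adjusted p = 0.015). Of the genes of these pathway lists, 0 were called for genotype or for the interaction.

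Markers of other cell types were counted beside these results, since *Klf2* and *Klf4* are known from endothelium. Of 9 endothelial markers 5 fell and 1 rose with exercise. *Cldn5* fell by 0.59 on the log2 scale (adjusted p = 0.0037), *Kdr* by 0.58 (adjusted p = 2.1e-06) and *Tek* by 0.35, *Cdh5* and *Emcn*, named after their values were seen, also fell, and *Flt1* rose by 0.32 (adjusted p = 0.00034). Their summed level was 465.6 to 628 CPM in the rested and 429 to 557 CPM in the exercised mice.

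Of the other markers, *Pax7* (-0.45, adjusted p = 0.0041) and *Myf5* (-0.46, adjusted p = 0.00084) of satellite cells and *Pdgfrb* (-0.46, adjusted p = 0.00036) of pericytes fell with exercise, and *Pax7* was higher in mD3AKO mice (0.48, adjusted p = 0.038). 0 of 6 fibroblast, 0 of 5 tested immune, 0 of 4 adipocyte, 0 of 4 Schwann cell and 0 of 5 blood genes were called. Fibroblast genes summed to 1102 to 5452 CPM in the rested and 1211 to 2929 CPM in the exercised mice. Immune genes summed to 57.6 to 221 and 38.6 to 170.4 CPM, and adipocyte genes to 9.03 to 188 and 15.1 to 209 CPM. Of the epithelial markers, *Krt5*, *Krt14*, *Krt8* and *Epcam* had too few counts for the test, and the 5 summed to at most 5.97 CPM. The part of cell composition in the levels of the members was not tested.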

How the data were processed

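Total RNA of the *soleus* was depleted of ribosomal RNA, made into stranded libraries and sequenced as 75-bp read pairs. Per the submitters' processing notes and the study's methods, the authors checked reads with FastQC 0.11.5, aligned them with STAR 2.5.3a to mm10 and counted them per gene of GENCODE release 15 with featureCounts 1.5.3. The deposited values are raw counts per gene. The strand setting of the counting is not given in the sources used here.

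The counts were analysed with edgeR 4.0.16 (R 4.3.3) with TMM factors, genes kept by filterByExpr (minimum count 10, minimum total 15) and the quasi-likelihood test on 4 group means, as main effects of exercise and genotype, their interaction and the effects within groups. P-values were adjusted by Benjamini-Hochberg over 16340 genes, with a threshold of 0.05. Each mouse gave 1 library, so p-values measure the spread between mice. Log2 CPM used a prior count of 2. Figures and tables were made with Python 3.11.15. The counting of calls was tested on simulated data.

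Gene symbols came from GENCODE annotation and matched 52403 of 52636 identifiers. The members and all lists were chosen with earlier results of these data known. The genes named with values are all members, the 3 genes most like each of 6 members by Pearson r, and in each list up to 4 called genes of the largest log2 fold change. A gene that this rule names and that counts in the lists is not reported here. The MEF2 and CArG motifs were added after the other motifs had been fixed, and protein sequences were not used here. Alternatives were DESeq2 1.42.0, other size factors and filters, a sex term, each sex alone and leaving out each mouse.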

Additional observations from a re-analysis of the deposited data

Results flagged for a closer look

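Of 40 sets of values (10 members in 4 groups), 3 held a mouse whose distance from the nearest other mouse, as a share of the range of its group on the log2 scale, was above Dixon's 95% critical value. Chance alone flags about 1 in 20 groups. *Klf9* of mouse 19 was the lowest of the exercised mD3AKO mice, at 150.4 CPM (share 0.639 against 0.625). *Klf10* of the same mouse was the highest of that group, at 26.0 CPM (share 0.720 against 0.625). *Klf15* of mouse 7 was the lowest of the rested mD3AKO mice, at 29.5 CPM (share 0.706 against 0.568). The summed immune markers were at 170.4 CPM in mouse 19, the highest of its group, and the summed fibroblast markers at 5452 CPM in mouse 7, the highest of all mice. Their part in these values was not tested.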

How the results depend on the processing

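No paired analysis was possible because the mouse numbers are unique and the groups share none. Of the 8 members that rose with exercise, 4 passed in males alone. The count within WT mice was 4 and became 2 without TMM and 1 in either sex alone, and that within mD3AKO mice was 6 and became 3 without TMM and 2 in females alone. The 3 calls for sex became 1 without TMM. When each mouse was left out in turn, the counts were 7 to 9 for exercise, 4 to 5 within WT, 5 to 6 within mD3AKO, 1 to 4 for sex and 0 for genotype and for the interaction. *Klf10* passed for exercise with DESeq2, with 8 group means and without mouse 4, 14, 19 or 20 (adjusted p 0.018 to 0.14 over the mice left out, edgeR).

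Some estimates that did not pass changed sign. Without TMM the genotype difference of *Klf7* was -0.026. In males alone *Klf5* had 0.17 with exercise, and the interaction was 0.065 for *Klf3*, 0.061 for *Klf10* and 0.017 for *Klf13*. In females alone the genotype difference was 0.012 for *Klf2* and 0.075 for *Klf4*, and the interaction was -0.10 for *Klf2*, -0.48 for *Klf4*, -0.023 for *Klf5*, -0.13 for *Klf6* and -0.070 for *Klf7*. With single mice left out the interaction ranged from -0.086 to 0.035 for *Klf3* and from -0.22 to 0.28 for *Klf5*, and the genotype difference from -0.023 to 0.044 for *Klf7* and from -0.029 to 0.023 for *Klf9*. The cause was not tested.

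Over all genes, exercise called 1699, and 927 without TMM, 966 in males and 512 in females, where fewer mice were compared. Genotype called 44, and 81 with DESeq2, 72 with a sex term, 29 without TMM, 23 in males and 6 in females. All 40 group means of the members moved by less than 1 SD without TMM. Depth limits *Klf5* most, with 35 to 140 counts per library.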
